A study of Ciona robusta with 6 samples.

Results

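The genes described are the intracellular Wnt and planar polarity symbols of an RNA-seq table made from adult hearts of Ciona robusta, a tunicate with a single tubular heart chamber. They were taken by symbol and are dsh, axin, pk1, pk2, tcf/lef and tcfl1, which are 6 of the 793 genes listed. All 6 libraries came from wild caught adults and were bulk pools of dissected heart pieces. With 2 libraries each, the pools held the contractile cardiac tube (C) or the vessel at one of its ends, that is, the sinus next to the pharynx (PS) or the sinus next to the stomach (SS). Pericardial cells had been removed, and each sinus piece kept a little of the neighbouring tube muscle. Whole hearts were cut into all 3 parts before pooling, so parts can come from the same hearts, and which pools share hearts is not stated. The labels do not say whether the replicate pools came from separate animals, so p-values measure only the spread between these libraries.

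Wnt ligands bind Frizzled receptors at the cell surface. Inside the cell Dishevelled passes the signal on. In the beta-catenin branch it acts against a destruction complex built on the scaffold Axin, and beta-catenin then works with TCF/LEF factors on target genes. In the planar polarity branch Dishevelled acts with Prickle and other proteins to orient cells within a sheet, and in the tunicate Ciona savignyi prickle is known from notochord cell movements in the embryo. The table gives symbols only, and 0 of the 793 matched the reference annotation used, so each role is read from the symbol. For dsh (Dishevelled), axin and tcf/lef the reading is direct, and pk1 and pk2 are read as prickle. The symbol tcfl1 is less certain, because TCFL1 is in human an older name of VPS72, a subunit of chromatin remodelling complexes, and not of a TCF/LEF factor.

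The values used are FPKM, that is, reads scaled for gene length and for the size of the library. In this table the library size was taken over the listed genes, so levels are relative to those genes. All 6 genes were well above 0 in every library. Their mean FPKM over the 6 libraries ran from 77.4 for axin to 186 for tcf/lef, where the median of all genes was 83.8. Within each library the 6 genes together gave 585 to 731 FPKM.

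The transcription factor symbol tcf/lef was the highest of the 6 in every library. It stood at 176.9 and 177.4 FPKM in the cardiac tube, 178.0 and 191.6 FPKM in the PS, and 204.6 and 187.1 FPKM in the SS. Every sinus library lay above both cardiac libraries, but the lowest sinus value and the highest cardiac one were nearly the same. Its highest library was 1.16 times its lowest, a smaller ratio than in most genes: of the 732 genes with a mean of at least 5 FPKM, 5.33% had a smaller one.

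The Dishevelled symbol dsh, which both branches use, was second in the order. It was at 148.0 and 130.3 FPKM in the cardiac tube, at 98.5 and 116.2 FPKM in the PS and at 114.5 and 111.6 FPKM in the SS. Both cardiac libraries were above all 4 sinus libraries, and the 2 sinuses overlapped.

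The prickle symbol pk1 was at 97.1 and 96.6 FPKM in the cardiac tube, at 77.3 and 82.8 FPKM in the PS and at 88.4 and 82.1 FPKM in the SS. The symbol pk2 was at 97.0 and 97.2 FPKM in the cardiac tube, at 77.5 and 83.4 FPKM in the PS and at 88.5 and 81.1 FPKM in the SS. For both, the cardiac libraries lay above all sinus libraries and the sinuses overlapped.

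The scaffold symbol axin was the lowest of the 6 by mean in each part. It was at 83.1 and 64.2 FPKM in the cardiac tube, at 68.0 and 82.7 FPKM in the PS and at 79.2 and 87.3 FPKM in the SS. The cardiac tube held both a high and the lowest value, so the parts overlapped.

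The symbol tcfl1 was at 128.9 and 90.8 FPKM in the cardiac tube, at 86.2 and 107.1 FPKM in the PS and at 92.4 and 110.3 FPKM in the SS. The replicates within each part were farther apart than the part means, and parts accounted for 12.4% of its variance on the log2(FPKM + 1) scale. The same share was 24.5% for axin, 59.8% for tcf/lef, 77.4% for dsh, 88.2% for pk1 and 85.4% for pk2, with a median of 72.5% over all genes.

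**Figure D1:**
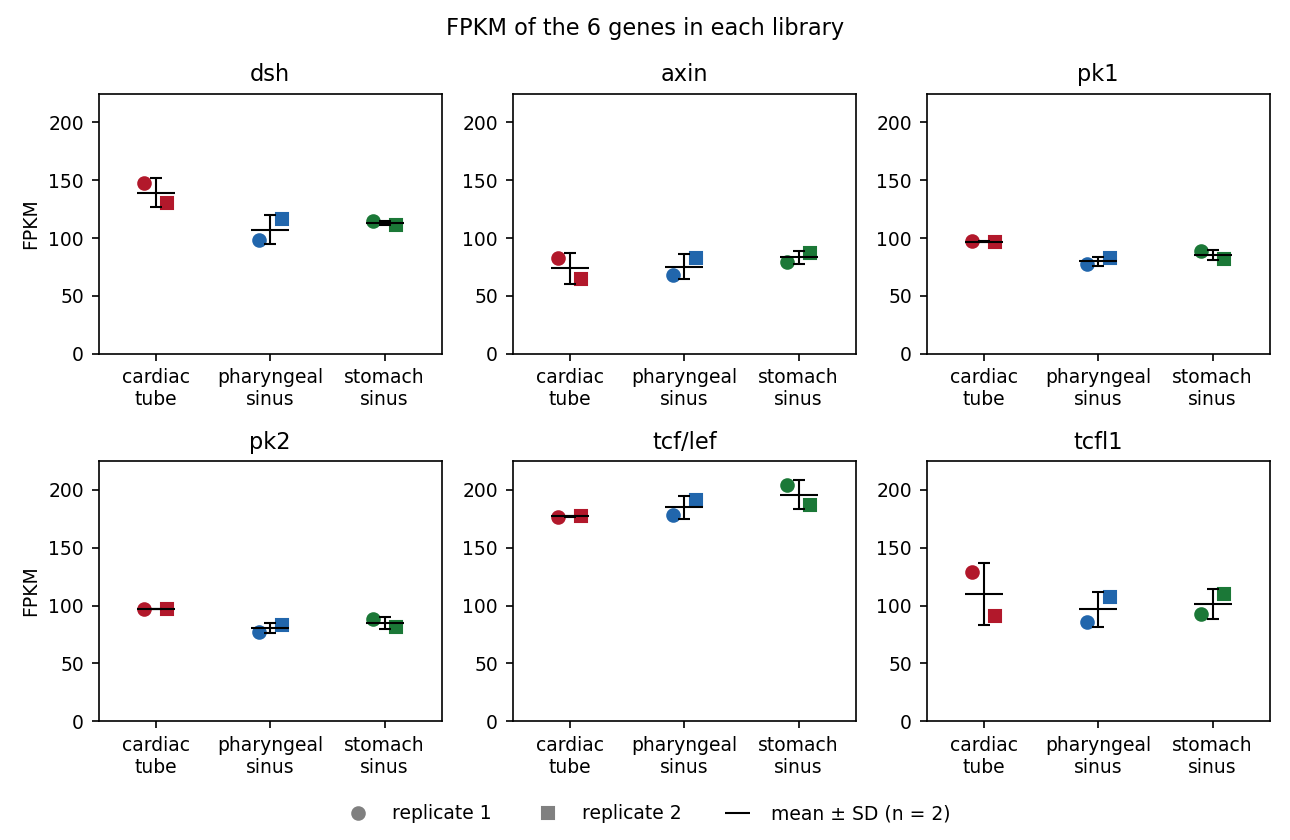
FPKM (y axis, from 0) of each gene by heart part, with a circle for replicate 1, a square for replicate 2 and black bars for the mean ± SD (n = 2). The cardiac libraries of dsh, pk1 and pk2 lie above the sinus libraries, and those of axin and tcfl1 are spread over the sinus range.

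By mean the order was tcf/lef, dsh, tcfl1, the pk symbols and axin in all 3 parts. In the cardiac tube the means were 177 ± 0.338 FPKM for tcf/lef, 139 ± 12.5 for dsh, 110 ± 26.9 for tcfl1, 97.1 ± 0.0947 for pk2, 96.8 ± 0.378 for pk1 and 73.7 ± 13.4 for axin (SD, n = 2). There the libraries of tcfl1 and the pk symbols overlapped, and other neighbours in the order did not. In the PS, dsh overlapped with tcfl1 and the pk symbols overlapped with axin. In the SS the pk symbols overlapped with axin again, while tcfl1 was below dsh and above the pk symbols in both libraries.

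The symbols pk1 and pk2 had almost the same read values in every library. The adjusted reads (reads per gene after the authors took out 1 factor of unwanted variation) were 590 and 621 in the cardiac tube, 475 and 507 in the PS and 569 and 504 in the SS for pk1. For pk2 they were 585 and 620, 472 and 507, and 565 and 494 in the same libraries. The difference was between 0 and 10 reads, and at most 2.02% of the pk2 value.

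The square root of the summed pk1 and pk2 values was 30.8 to 35.2 in these libraries. Separate counts would differ by about that much only if both genes had the same true level, which is not known. Adjusted reads are also no longer counts, so no level of sampling noise follows from that square root. Among the 589 genes with at least 50 adjusted reads in every library there are 173166 pairs, and pk1 with pk2 was the only pair within 3% in every library. The next closest pair, LOC778837 and arfgap-7, reached 3.18%. The gene lengths that the FPKM values imply were also close, at 3879 bases for pk1 and 3849 for pk2. The lengths implied for the others were 2769 bases for dsh, 2695 for axin, 1061 for tcf/lef and 1129 for tcfl1. The authors' counting option, stated for the zebrafish libraries of the study, lets a read count for every gene it overlaps. Whether pk1 and pk2 are overlapping models of 1 gene was not tested. They are treated below as 1 measurement, which leaves 5 separate ones among the 6 symbols.

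**Figure D2:**
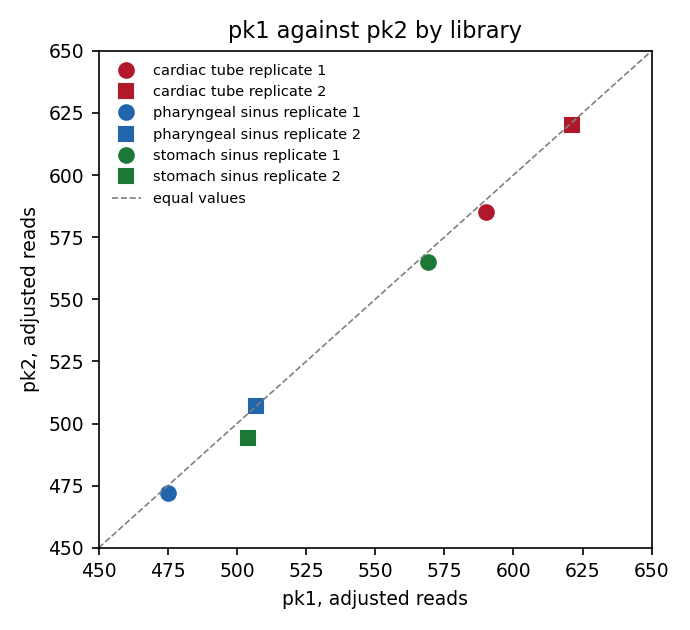
Adjusted reads of pk1 (x axis) against pk2 (y axis), 1 point per library, with a dashed line of equal values. The 6 points follow the line, with differences of 0 to 10 reads.

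The comparison of the PS with the tube addresses how a flanking vessel differs from the contractile chamber. The means went from 139 ± 12.5 FPKM in the tube to 107 ± 12.5 FPKM in the PS for dsh and from 96.8 ± 0.378 to 80.1 ± 3.84 FPKM for pk1 (SD, n = 2 each). The log2 difference of FPKM + 1 was -0.37 ± 0.17 for dsh (SE, limma adjusted p = 0.258), with a 95% interval of -0.78 to 0.04. It was -0.27 ± 0.17 for pk1 (adjusted p = 0.406) and -0.27 ± 0.17 for pk2 (adjusted p = 0.412).

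The others differed less. The log2 difference was 0.04 ± 0.22 for axin (limma adjusted p = 0.931), 0.06 ± 0.13 for tcf/lef (0.874) and -0.17 ± 0.24 for tcfl1 (0.755). For tcfl1 it was 0.25 without cardiac tube replicate 1, and for axin -0.27 without cardiac tube replicate 2.

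None of the 6 passed an adjusted p of 0.05 by limma, and 0 had an unadjusted p under 0.05, while 7.44% of all 793 genes passed (5.04% higher and 2.4% lower) and 12.5% (higher) and 10.8% (lower) had such an unadjusted p. Under the authors' scaling both PS libraries were below both cardiac libraries for dsh, pk1 and pk2 and above them for tcf/lef, and the mean differences of pk1 and pk2 turned to 0.06 with equal library totals, as described further on. Over all genes 31.7% were lower without overlap and 30% were higher without overlap, so with 5 separate measurements these counts are near the background. The cardiac libraries were above all 4 sinus libraries for dsh, pk1 and pk2 (21.4% of all genes) and below them for tcf/lef (19.4% of all genes).

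The SS was compared with the same cardiac libraries, so these differences share their controls with the ones above. The log2 difference was -0.29 ± 0.17 for dsh (SE, limma adjusted p = 0.352), with a 95% interval of -0.70 to 0.12. It was -0.18 ± 0.17 for pk1 (adjusted p = 0.567), -0.19 ± 0.17 for pk2 (0.54), 0.18 ± 0.22 for axin (0.657), 0.14 ± 0.13 for tcf/lef (0.567) and -0.10 ± 0.24 for tcfl1 (0.846). Without cardiac tube replicate 1 that of tcfl1 was 0.32, and without cardiac tube replicate 2 that of axin was -0.12. None of the 6 passed by limma, 0 had an unadjusted p under 0.05, and 1.64% of all genes passed (1.26% higher, 0.378% lower), with an unadjusted p under 0.05 in 10.8% (higher) and 12.1% (lower). Under the authors' scaling dsh, pk1 and pk2 were again below the cardiac libraries without overlap, as were 30.3% of all genes, and tcf/lef was above them, as were 31.1%. The mean differences of dsh, pk1 and pk2 were positive with equal library totals.

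The sinuses were compared because the study asked whether they are alike. All 6 log2 differences (PS minus SS) were negative, between -0.15 ± 0.22 for axin (SE, limma adjusted p = 0.842) and -0.07 ± 0.24 for tcfl1 (0.921). For dsh it was -0.08 ± 0.17 (95% interval -0.49 to 0.33, adjusted p = 0.889), for pk1 -0.09 ± 0.17 (-0.50 to 0.32), for pk2 -0.08 ± 0.17 (-0.49 to 0.34) and for tcf/lef -0.08 ± 0.13 (-0.41 to 0.24). None of the 6 passed by limma, 0 had an unadjusted p under 0.05, and 1.26% of all genes passed (0.757% higher, 0.504% lower), with an unadjusted p under 0.05 in 7.69% (higher) and 7.19% (lower). All 6 genes overlapped between the sinuses, where 26.6% of all genes were higher and 24.8% lower without overlap. The 6 signs are not separate, as pk1 and pk2 have nearly equal values and all 6 genes share each library's scaling.

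**Figure D3:**
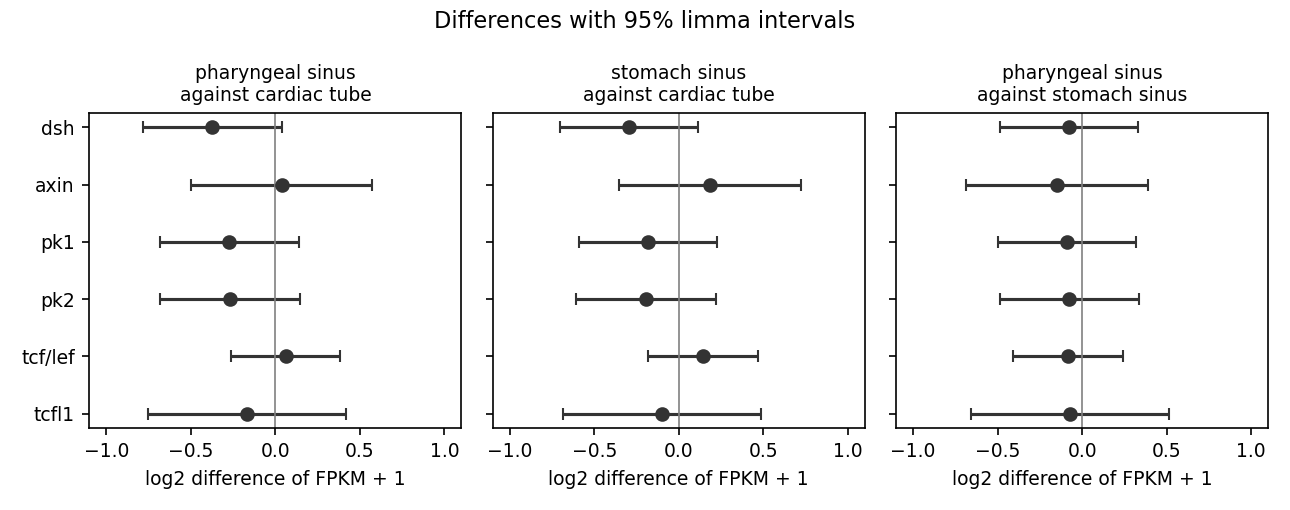
Log2 difference of FPKM + 1 (x axis) of each gene in the 3 comparisons, with bars for the 95% limma interval of the difference. Every interval includes 0, and the lowest bound is -0.78, for dsh in the PS against the cardiac tube.

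A p that misses the threshold does not show equal levels, but the intervals bound the differences within the fit that gave them. In the main fit each of the 18 unadjusted 95% intervals lay within a 2-fold change either way. Intervals of the fits without 1 library are not given, and without PS replicate 2 dsh was at -0.54 in the PS against the cardiac tube. Over all genes this held for 62.0% in the PS against the cardiac tube, for 63.6% in the SS against it and for 70.0% between the sinuses. With adjusted reads scaled to equal totals, 17 of the 18 lay within 2-fold, and the exception was axin in the SS against the cardiac tube, with an upper bound of 1.05.

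Several signs against the cardiac tube turned with the scaling, while dsh in the PS stayed negative and tcf/lef and axin in the SS stayed positive under both other scalings. The cardiac libraries held more reads in the listed genes, with 1838786 and 1950483 adjusted reads against 1412759 to 1531216 in the sinuses, and if-a, an intermediate filament symbol, alone took 14.2% and 15.8% of their summed FPKM against 7.08% to 10.3%. Scaling to equal totals raised the difference of the median gene by 0.34 (PS) and 0.35 (SS) on the log2 scale, and centring on the median of each library shifted it by -0.09 and -0.12. With equal totals dsh was at -0.04 in the PS and 0.06 in the SS, pk1 at 0.06 and 0.17, pk2 at 0.06 and 0.16, axin at 0.37 and 0.54, tcf/lef at 0.40 and 0.50 and tcfl1 at 0.16 and 0.25. None of these passed (limma adjusted p between 0.126 and 0.902). In the SS axin and tcf/lef had an unadjusted p under 0.05 with that scaling (adjusted p = 0.126 for both, limma). With centred libraries tcf/lef was at -0.03 in the PS, and dsh and the pk symbols stayed negative in both sinuses.

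Ratios between genes within a library do not depend on its scaling, and they were looked at after the values above had been seen. The FPKM ratio of pk1 to tcf/lef was 0.549 and 0.544 in the cardiac tube, 0.435 and 0.432 in the PS and 0.432 and 0.439 in the SS. It was thus 0.547 ± 0.00318 in the tube (SD, n = 2) and 0.434 ± 0.00324 in the 4 sinus libraries (SD). These SDs too come from values with 1 factor close to the replicate number taken out, and can understate the spread between pools. The ratio of dsh to tcf/lef was 0.837 and 0.734 in the tube, 0.554 and 0.606 in the PS and 0.560 and 0.597 in the SS. Both ratios were higher in the tube than in any sinus library. Of all other genes set over tcf/lef, 28.7% were above all sinus libraries in both cardiac ones and 13.1% below them, and no test was run on these ratios. The ratio of axin to tcf/lef overlapped between the tube (0.362 and 0.470) and the sinuses (0.382 to 0.466), and so did that of tcfl1 (0.512 and 0.729, against 0.452 to 0.590). The choice of tcf/lef matters, as it is the gene whose cardiac libraries lay below all sinus libraries. Over tcfl1, the ratio of dsh overlapped between the tube (1.15 and 1.43) and the sinuses (1.01 to 1.24), and that of pk1 did too (0.753 and 1.06, against 0.745 to 0.957). Over axin, the ratio of dsh was 1.78 and 2.03 in the tube and 1.28 to 1.45 in the sinuses. That of pk1 over axin was at least 1.17 in the tube and at most 1.14 in the sinuses. The ratio of tcfl1 to axin was also higher in the tube, at 1.55 and 1.41 against 1.17 to 1.30. For ratios over axin or tcfl1 no share over all genes is given.

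**Figure D4:**
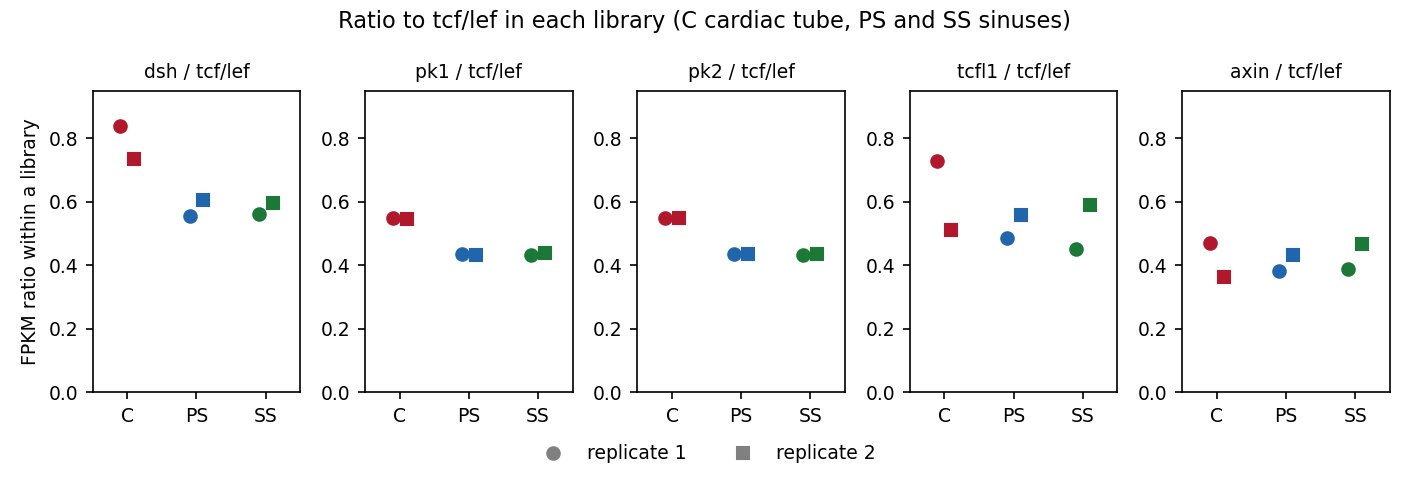
FPKM ratio of each gene to tcf/lef within a library (y axis, from 0), for the cardiac tube (C) and the sinuses (PS, SS), with a circle for replicate 1 and a square for replicate 2. The ratios of dsh, pk1 and pk2 are higher in both cardiac libraries than in all 4 sinus libraries.

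Markers of the dissected tissues and of other cells were read in the same libraries, and of all of them nk4 and dnal1 passed in 1 comparison each. The cardiac muscle list, nk4 (a cardiac homeobox gene) and tropm1 (tropomyosin), summed to 8861 and 9714 FPKM in the cardiac tube and to 6711 to 7796 FPKM in the sinuses. Of its 2 genes, nk4 was lower in the PS (log2 difference -0.83 ± 0.13, limma adjusted p = 0.0255, and 0.205 or 0.23 with either cardiac library left out) and neither passed in the SS. The endostyle-specific gene was at 128 and 1010 FPKM in the PS and at 9.21 to 27.8 FPKM elsewhere. The 4 vanabins of blood cells summed to 12416 and 15208 FPKM in the PS, to 10617 and 11254 FPKM in the tube and to 7801 and 9786 FPKM in the SS. The 7 sperm and axoneme genes summed to 548 FPKM in SS replicate 2 and to 49.5 to 197 FPKM in the others (dnal1 passed as higher in the SS than in the tube, limma adjusted p = 0.0495, and 0.0762 to 0.31 with 1 cardiac or SS library left out), and the 2 stomach genes (gh18, ciap) 156 and 200 FPKM in the SS and 97.4 to 134 FPKM elsewhere. Of the stomach genes, gh18 was at 25.9 and 67.3 FPKM in the SS and overlapped with the tube (32.2 and 23.6 FPKM). The other, ciap, was at 130 and 133 FPKM in the SS and at 73.8 to 128 FPKM elsewhere. No endostyle, vanabin or stomach gene passed in any comparison (lowest limma adjusted p 0.0583, 0.105 and 0.13). No marker was at 0 in any library. The part of these tissues in the values of dsh, pk1 and pk2 was not tested, and in bulk pieces fewer cells of a type cannot be told apart from less RNA per cell.

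Other genes of the pathway matched 22 symbols, 16 by the patterns listed for them and 6 by other spellings found in the table (fz3/6, fz4, cifrz, dickkopf, cibeta-catenin and ck-1a1). In the PS against the cardiac tube 2 were higher, 1 was lower and 19 did not pass (3 of 22, where 7.44% of all genes passed), with a median log2 difference of -0.02 where that of all genes was 0.00. At an unadjusted p under 0.05, 3 were higher and 6 lower, beside 12.5% and 10.8% of all genes. The count of calls was 0 of 22 by limma in the SS against the tube (8 at an unadjusted p under 0.05, 4 higher and 4 lower, beside 10.8% and 12.1% of all genes). Between the sinuses it was 0 of 22. There 1 was lower at an unadjusted p under 0.05, beside 7.69% (higher) and 7.19% (lower) of all genes. With equal library totals 4 were higher in the PS (wnt5, sfrp3/4-b, groucho1 and groucho2) and 5 in the SS (the same 4 and wnt3), and 0 were lower. Of all 793 genes, 120 were higher and 11 lower in the PS with that scaling, and 130 and 5 in the SS. With libraries centred on their median 2 were higher and 2 lower in the PS, and 3 were lower in the SS (fz3/6, sfrp1/5 and ck-1a1). All genes then gave 44 higher and 43 lower in the PS, and 20 and 56 in the SS. Without a term in the fit for the factor the authors took out, 7 of the 22 passed in the PS and 6 in the SS. All genes then gave 151 and 113 calls.

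The 3 genes that passed in the main fit under the authors' scaling are symbols of secreted proteins. The ligand wnt5 was higher in the PS (log2 difference 0.94 ± 0.18, limma adjusted p = 0.0385), at 635 and 506 FPKM against 259 and 335 in the tube. Of the secreted frizzled-related proteins, which bind Wnt ligands, sfrp3/4-b was higher (0.73 ± 0.11, limma adjusted p = 0.0255) and sfrp1/5 lower (-0.50 ± 0.10, limma adjusted p = 0.0405). With equal library totals sfrp1/5 was at -0.16 and did not pass, and wnt5 and sfrp3/4-b passed at 1.28 and 1.07. The call of sfrp1/5 was lost when any 1 of the 6 libraries was left out (limma adjusted p 0.0521 to 0.267). That of wnt5 was lost when any 1 of the cardiac or SS libraries was left out (0.0821 to 0.242), and that of sfrp3/4-b when either cardiac library was (0.205 and 0.216). Another ligand, wnt-a, had a log2 difference of -1.62 ± 0.48 in the PS against the tube and did not pass (limma adjusted p = 0.106). The log2 difference of sfrp2 was -0.14 ± 0.84 in the PS and 1.37 ± 0.84 in the SS against the tube and -1.51 ± 0.84 between the sinuses, and it passed in none of them. Without PS replicate 1 sfrp2 passed in the SS against the tube (limma adjusted p = 0.0362) and between the sinuses (-3.02), and without PS replicate 2 it passed in the SS against the tube (0.0237) and was at -0.0026 between the sinuses.

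Of the 11 other genes that act inside the cell, 0 passed in any comparison by limma in the main fit under the authors' scaling. At an unadjusted p under 0.05 there were 4 in the PS (1 higher, the others lower) and 3 in the SS (1 higher, 2 lower) against the tube. Between the sinuses there was 1, lower in the PS. Of all genes 12.5% were higher and 10.8% lower at that level in the PS, and 10.8% and 12.1% in the SS. Between the sinuses the shares were 7.69% and 7.19%. Without a term in the fit for the factor the authors took out, groucho2 passed as higher in both sinuses against the tube. There ck-1a1 passed as lower in both, rhou as lower in the PS and jnk as lower in the SS. With equal library totals groucho1, a corepressor symbol, passed at 0.68 in the PS and 0.76 in the SS. The related symbol groucho2 was at 42.5 and 41.7 FPKM in the tube, 76.0 and 60.6 FPKM in the PS and 68.5 and 85.3 FPKM in the SS. Its log2 differences from the tube were 0.68 ± 0.23 (PS, limma adjusted p = 0.137) and 0.85 ± 0.23 (SS, 0.11), and with equal library totals they were 1.02 and 1.21 and passed. Casein kinase 1 (ck-1a1), a kinase of the destruction complex, had log2 differences of -0.43 ± 0.14 (PS, 0.12) and -0.53 ± 0.14 (SS, 0.109), and beta-catenin itself (cibeta-catenin) of -0.29 ± 0.11 and -0.31 ± 0.11, which with equal library totals were 0.05 and 0.05. The kinase gsk, at 221 to 237 FPKM in all 6 libraries, was at -0.03 ± 0.12 in the PS and 0.05 ± 0.12 in the SS.

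The 6 other planar polarity genes were small GTPases and the kinase jnk, which ran from 318 to 383 FPKM. The symbols rhoa and rhoc ran from 1411 to 1675 FPKM, and rhou was at 791 and 866 FPKM in the tube, 653 and 544 FPKM in the PS and 729 and 770 FPKM in the SS. In the PS against the tube rhou had the largest absolute difference of this list (-0.47 ± 0.13, limma adjusted p = 0.093), and between the sinuses rhob did (0.41 ± 0.34, adjusted p = 0.714). Among the receptors fz3/6, at 232 and 180 FPKM in the tube, had log2 differences of -0.55 ± 0.19 in the PS (limma adjusted p = 0.142) and -0.69 ± 0.19 in the SS (0.113), and cifrz of -0.09 ± 0.26 and -0.33 ± 0.26.

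**Figure D5:**
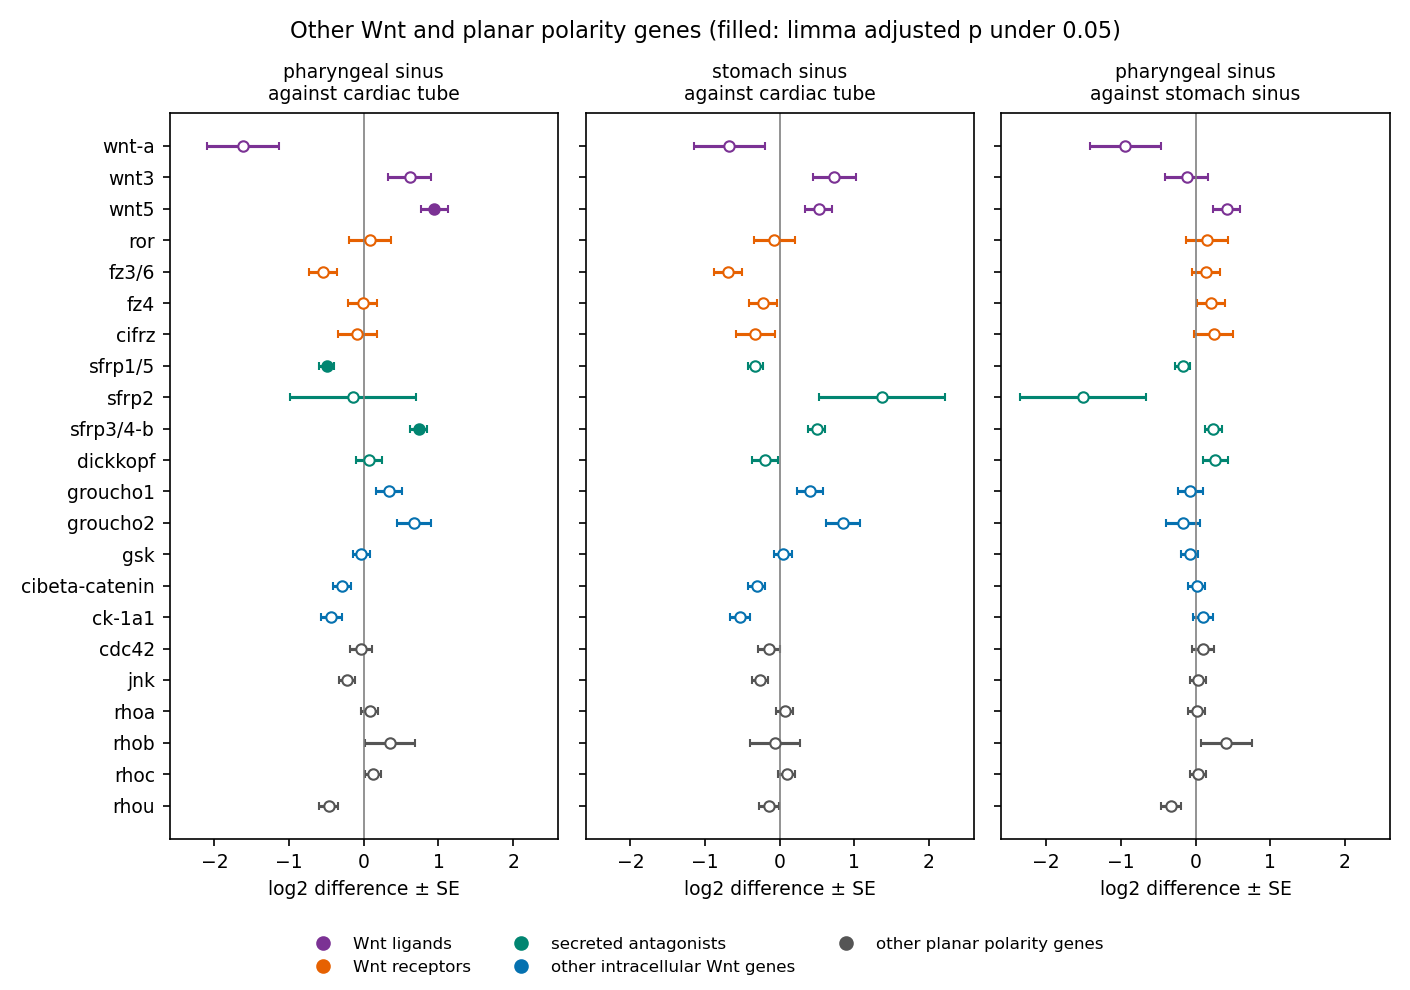
Log2 difference (x axis) ± SE of the 22 other Wnt and planar polarity genes in the 3 comparisons, coloured by list, with filled points where the limma adjusted p was under 0.05. The filled points are wnt5, sfrp1/5 and sfrp3/4-b in the PS against the cardiac tube.

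Over the 6 libraries, dsh followed pk1 with a Pearson correlation of 0.926 on log2(FPKM + 1), and axin followed tcfl1 with 0.755. The correlation of tcf/lef was 0.444 with axin and below 0 with the other 4. These values share the libraries and the part means, and describe 6 points. Among genes with a mean of at least 5 FPKM, the profiles most like dsh were those of meis (0.994), zf(u1like)-8 (0.990) and LOC494405 (0.985). Besides each other, pk1 was closest to hand (0.996) and tensin (0.984), and pk2 to hand (0.992) and ci-cadherin (0.979). The closest to tcf/lef were p53/p73-b (0.988), nab1/2 (0.979) and hsf (0.967). For tcfl1 they were zf(traf/ring)-5 (0.995), zeta (0.984) and zf(c2h2)-17 (0.954), and for axin polr3k (0.967), tbx20 (0.951) and LOC494427 (0.912). Between 3 (axin) and 28 (pk1) genes exceeded a correlation of 0.9.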

How the data were processed

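RNA of pooled heart pieces was sequenced, and the authors used cutadapt, STAR (genome build ci3), featureCounts and DESeq2, per the labels and the paper's methods. Those methods state a correction by RUVs for the zebrafish libraries and the same handling for Ciona. The tool versions stand there with the zebrafish libraries and are not repeated for Ciona.

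The deposited columns called raw were used as a score. The replicate differences of 179 strongly expressed genes (mean over 1000, natural log) had singular values of 2.43, 1.79 and 0.0028, so the authors had taken 1 factor out of these reads. The deposited FPKM were made by the authors from them with size factors, and imply whole gene lengths for all 793 genes (within 0.01). The authors' fold changes, p-values and group means stand in further columns that were not used. Library totals over the listed genes are 1412759 to 1950483 adjusted reads. The depth itself is unknown, and no counting interval is given.

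Limma 3.58.1 (R 4.3.3) was fitted on log2(FPKM + 1) over all 793 genes and 6 libraries, with 3 groups, a term for the removed factor (2 residual degrees of freedom) and a trend, and p-values were adjusted by Benjamini-Hochberg over all genes. The design left an opening for that term. The code was tested on simulated data. An exact permutation test of 2 libraries against 2 cannot go below p = 0.333 and was not run. The genes, lists and tests were chosen with earlier results of these data known. Named are the 6 genes, the list genes that passed, the 2 genes of each pathway list with the largest absolute difference in any comparison, and the 3 closest profiles per gene. The values of gsk, jnk, rhoa, rhoc, groucho1, wnt3 and cibeta-catenin were added after they had been seen. The alternatives were pseudocounts of 0.1 and 10, a minimum mean of 5 FPKM, adjusted reads at equal totals, median centring, no trend, no term, a replicate block with and without the term, and leaving out each library.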

Additional observations from a re-analysis of the deposited data

How the results depend on the processing

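None of the 6 genes passed in any of the 15 alternatives of any comparison (0 calls among 270 limma values, 7 with an unadjusted p under 0.05), and the lowest adjusted p was 0.095. Of the 7, dsh, pk1 and pk2 were lower in the PS than in the tube without the term (limma adjusted p = 0.095, 0.121 and 0.129). In the same comparison dsh was also lower with centred libraries (limma adjusted p = 0.149). There tcfl1 was lower without cardiac tube replicate 2 (log2 difference -0.59). In the SS, axin and tcf/lef were higher with equal totals, as given above. The sign was as reported in 246 of the 270 and another in 24. Many of the 270 could not turn. The minimum of 5 FPKM, no trend, no term and both replicate blocks left each of these log2 differences unchanged. So did leaving out a library of the part outside the comparison.

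The sign turned with adjusted reads at equal totals in the PS against the cardiac tube for pk1 (0.062), pk2 (0.065) and tcfl1 (0.16), and in the SS for dsh (0.059), pk1 (0.17), pk2 (0.16) and tcfl1 (0.25). With libraries centred on their median it turned in the PS for axin (-0.054) and tcf/lef (-0.030). The range without 1 library each, in the PS against the tube, was -0.54 to -0.20 for dsh, -0.59 to 0.25 for tcfl1, -0.27 to 0.34 for axin and -0.018 to 0.14 for tcf/lef. In the SS against the tube it was -0.44 to -0.15 for dsh (-0.145 without cardiac tube replicate 1), -0.52 to 0.32 for tcfl1 and -0.12 to 0.49 for axin. Between the sinuses it was -0.25 to 0.090 for dsh, -0.35 to 0.052 for axin, -0.16 to 0.0094 for pk2, -0.17 to 0.0046 for tcf/lef and -0.29 to 0.15 for tcfl1.

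The number of all genes called, 59 (PS against tube), 13 (SS against tube) and 10 (PS against SS) as reported, moved more. With no term for the removed factor it was 151, 113 and 33, and 131, 135 and 34 with equal totals. With equal totals 120 of 131 and 130 of 135 were higher in the sinus, against 40 of 59 and 10 of 13. With centred libraries 44 of 87 and 20 of 76 were higher. Without the trend 13 (PS against tube) and 0 (SS against tube, 154 unadjusted) were called. The SS against the tube had 2 calls with a pseudocount of 0.1, 2 with 10 and 26 with the minimum of 5 FPKM, and the sinuses had 2 with a pseudocount of 0.1 and 3 with that minimum. Leaving out each library gave 0 to 79 calls (PS against tube), 0 to 92 (SS against tube) and 0 to 57 (PS against SS). Leaving out cardiac tube replicate 1 gave 2 calls in the PS against the tube, and leaving out cardiac tube replicate 2 gave 0 (134 unadjusted). In the SS against the tube, leaving out any cardiac or SS library gave 0 calls (91 to 162 unadjusted). Between the sinuses leaving out cardiac tube replicate 1, cardiac tube replicate 2 or SS replicate 2 gave 0 (100, 102 and 89 unadjusted). In a further run chosen after seeing the data, the genes of other lists that passed kept their direction in all 15 alternatives and passed in 9 (wnt5), 11 (sfrp3/4-b), 6 (sfrp1/5), 11 (nk4) and 7 (dnal1). In the alternatives that left a log2 difference unchanged, named above, the direction of these genes could not turn. In the fits without a library a group with 1 library is taken to vary like the others, and 1 residual degree of freedom is left.

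The replicate numbers are shared across parts, and whole hearts were cut into all 3 parts, but the sources do not say that same-numbered pools share hearts. The removed factor lay close to the replicate number (cosine 0.997 over the 3 replicate differences), and the deviations of same-numbered libraries correlated at -0.54 to -0.46 across genes, as taking out such a factor makes them do. A replicate block in place of the term gave 61, 13 and 10 calls, and a replicate block with the term 0, 0 and 0 (159, 139 and 83 unadjusted). The cause of the other shifts was not tested.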
